A study of Homo sapiens with 12 samples.

Results

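MUC1, GCNT1, CHST11 and A4GALT, genes of the cell-surface glycan layer, were examined in THP1 cells, a human monocytic leukaemia line. They were selected on their read counts, as a mucin gene and genes of glycosyl- or sulfotransferases that differed between THP1 cells kept in co-culture with endothelial cells and THP1 cells kept alone. They are 4 of the 58735 rows of the count table, and all 4 were among the 25873 rows with at least 10 counts over the 12 libraries. Because the choice was made on the contrast between co-culture and mono-culture, values of that contrast are given for the 4 genes as a description. Where an adjusted p of that contrast is mentioned for them, it is no support, since the choice favours it. The contrasts among the 3 kinds of co-culture were not the one named in the choice and were tested. They use the same co-culture libraries, so they are not independent of the choice.

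Wild-type THP1 cells were held for 24 h as mono-culture or in the upper part of a transwell with 1 µm pores above primary human umbilical vein endothelial cells (HUVEC). The endothelial cells were control ECs given the solvent DMSO, senescent ECs (senECs) made with 10 µM etoposide, a topoisomerase poison, or senECs treated with 100 µM epigallocatechin gallate (EGCG), a catechin of green tea. THP1 cells were then taken out of the transwells and stimulated for 2 h with 100 ng/ml lipopolysaccharide (LPS), so that every library, mono-culture included, is from LPS-treated cells and no unstimulated level was measured. RNA of the THP1 cells was sequenced in 3 libraries per group, with the numbers 1, 2 and 3 in the mono-culture and control EC groups and 1, 2 and 5 in both groups with senECs. The labels do not say whether libraries of a group came from separate cultures, so the p-values measure only the spread between these libraries.

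Mucins are large glycoproteins whose serine- and threonine-rich stretches carry dense O-glycans. MUC1 encodes a transmembrane mucin with a long O-glycosylated ectodomain and a short cytoplasmic tail that takes part in signalling. GCNT1 encodes the Golgi enzyme that adds the branch of core 2 O-glycans, the scaffold on which myeloid cells build sialyl Lewis x for selectin binding. CHST11 encodes a sulfotransferase that puts sulfate on N-acetylgalactosamine of chondroitin sulfate chains, and A4GALT encodes the galactosyltransferase that makes globotriaosylceramide (Gb3) from lactosylceramide. The libraries hold RNA alone, and neither the glycans nor the proteins were measured.

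Of the 4 genes, all had at least 1 entry among RefSeq promoters of GRCh38.p14, and the 250 bases before the start are shown for the entry at which most GENCODE transcripts of the gene begin within 100 bases. They are printed to show what kind of start region each gene has, since 3 of the genes were higher together in co-culture; gene counts do not tell which start was used. Windows are chr1:155192916-155193165 on the minus strand for MUC1, where 26 of 29 transcripts begin, chr9:76458932-76459181 on the plus strand for GCNT1 (3 of 6), chr12:104456698-104456947 on the plus strand for CHST11 (4 of 6) and chr22:42720871-42721120 on the minus strand for A4GALT (4 of 7). Capitals mark matches on either strand to the GC box GGGCGG, the purine box GAGGAA bound by PU.1 and other ETS factors, and the TATA box TATAAA.
MUC1: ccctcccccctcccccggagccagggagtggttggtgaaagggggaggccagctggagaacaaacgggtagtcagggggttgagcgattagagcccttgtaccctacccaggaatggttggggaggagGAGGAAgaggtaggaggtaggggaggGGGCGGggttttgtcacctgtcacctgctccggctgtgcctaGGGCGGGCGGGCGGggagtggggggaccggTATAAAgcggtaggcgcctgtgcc
GCNT1: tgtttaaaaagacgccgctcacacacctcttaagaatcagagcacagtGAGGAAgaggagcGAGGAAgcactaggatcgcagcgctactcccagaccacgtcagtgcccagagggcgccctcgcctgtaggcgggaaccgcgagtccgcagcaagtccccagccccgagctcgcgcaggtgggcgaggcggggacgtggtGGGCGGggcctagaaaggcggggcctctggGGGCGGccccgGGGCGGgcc
CHST11: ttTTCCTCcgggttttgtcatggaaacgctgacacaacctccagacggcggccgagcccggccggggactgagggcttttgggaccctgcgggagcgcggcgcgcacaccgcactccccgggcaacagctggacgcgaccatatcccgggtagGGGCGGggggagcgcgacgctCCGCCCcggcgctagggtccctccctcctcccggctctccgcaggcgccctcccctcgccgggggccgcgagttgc
A4GALT: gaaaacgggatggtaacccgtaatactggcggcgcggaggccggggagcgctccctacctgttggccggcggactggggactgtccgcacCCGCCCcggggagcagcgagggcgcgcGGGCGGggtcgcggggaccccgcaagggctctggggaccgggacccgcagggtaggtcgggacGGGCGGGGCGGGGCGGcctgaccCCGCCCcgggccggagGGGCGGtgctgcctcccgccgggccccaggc

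GC content was 66.0% for MUC1, 68.0% for GCNT1, 73.2% for CHST11 and 79.2% for A4GALT. Over 35116 RefSeq promoter windows of the same length the median was 58.0%, with quartiles of 46.4% and 68.0%, so only CHST11 and A4GALT lay above the upper quartile. Each of the 4 held a GC box, with 4, 3, 2 and 7 matches in that order, and 42.6% of all windows held 1 or more. A GAGGAA box was present in MUC1, GCNT1 and CHST11, with 1, 2 and 1 matches, and 23.6% of all windows held it, whereas A4GALT held none. MUC1 alone had a TATA box, which began 24 bases before the start, and 10.7% of all windows held one at any position. None of the 4 windows held an AP-1 site TGANTCA, a STAT site TTCNNNGAA, an NF-kB-like site GGNNTTTCC or an octamer ATTTGCAT, which 6.57%, 6.57%, 5.48% and 1.63% of all windows held. Matches are letters in a window and say nothing of binding.

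Libraries held 15439836 to 22092600 counts, with a median of 18153783. Values are counts per 1000000 counted reads (CPM), with library sizes scaled by edgeR's TMM factors, which lay between 0.912 and 1.04, and 3 counts in the smallest library correspond to 0.194 CPM. All 15 markers of THP1 cells and monocytes had counts in every library, with a summed level of 2639 to 4211 CPM, although CD68, a lysosomal mucin-like protein of macrophages, had only 2 to 16 counts per library. Among them, CD14 (5.91 to 11.0 CPM in mono-culture, 12.4 to 65.7 in co-culture), FCGR1A (26.1 to 30.2, 35.6 to 51.6) and SPI1 (226 to 263, 265 to 385) lay wholly above mono-culture, as for 1.77% of all tested genes. None of the 15 lay wholly below it in all co-cultures. The summed level of 19 endothelial markers was 29.1 to 39.1 CPM in mono-culture, 33.9 to 48.7 with control ECs, 37.9 to 48.3 next to senECs and 34.5 to 44.1 next to EGCG-treated senECs, led by EGFL7 and FLT1. Single markers differed. CDH5 had 2 counts in all 12 libraries together and MMRN1 and CLEC14A had none, whereas FLT1 had 2636, ESAM 425 and VWF 236. ERG was at 0.187 to 0.592 CPM in mono-culture, 0.945 to 1.63 with control ECs, 0.752 to 1.15 with senECs and 0.183 to 1.18 with EGCG-treated senECs. CALCRL went the other way, at 0.373 to 1.02, 0.222 to 0.308, 0 to 0.347 and 0 to 0.609 CPM in the same order. EGFL7, the best counted of the 19, was at 17.84 to 21.70 CPM in mono-culture. With senECs it lay wholly above that range, at 22.04 to 30.40 CPM, as for 8.18% of all tested genes. It overlapped mono-culture with control ECs, at 20.67 to 22.31 CPM, and with EGCG-treated senECs, at 20.84 to 22.85 CPM. The groups overlapped in the summed level, and the part of these markers in the results was not tested.

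MUC1 (ENSG00000185499.16, chr1:155185824-155192916, minus strand) had the widest difference of the 4 genes between mono-culture and co-culture. Its level was 10.5, 5.81 and 7.82 CPM in the mono-culture libraries, from 108 to 169 counts. It was 28.1, 28.4 and 22.8 CPM with control ECs, 34.0, 25.9 and 27.6 CPM with senECs, and 40.1, 24.0 and 25.9 CPM with EGCG-treated senECs. All 9 co-culture libraries lay above the 3 mono-culture libraries, and the lowest of them was 2.17 times the highest mono-culture library. Against mono-culture the log2 fold change was 1.72 ± 0.21 (SE) for control ECs, 1.86 ± 0.21 for senECs and 1.90 ± 0.21 for the EGCG-treated ones, or 3.30-, 3.64- and 3.74-fold. By log2 fold change MUC1 was the 14th, 18th and 16th highest of 14397 genes with a mean of at least 1 CPM. The spread inside a group was wide for this gene, and the EGCG-treated senEC library 1, at 40.1 CPM, stood above the other 2 of its group.

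GCNT1 (ENSG00000187210.13, chr9:76419850-76651203, plus strand) was higher in co-culture by a smaller step and with less spread. Levels were 26.9, 32.2 and 32.1 CPM in mono-culture and 44.8, 49.9 and 47.0 CPM with control ECs. They were 42.4, 47.3 and 49.4 CPM with senECs and 42.5, 47.5 and 47.0 CPM with EGCG-treated senECs. The 9 co-culture libraries spanned only 42.4 to 49.9 CPM, and the lowest was 1.32 times the highest mono-culture library. The log2 fold change against mono-culture was 0.64 ± 0.11, 0.61 ± 0.11 and 0.59 ± 0.11 for the co-cultures in the same order. GCNT1 shares 262 exonic bases with PRUNE2 on the opposite strand, and the strand setting of the counting is not given in the sources used here, so reads of the shared bases cannot be told apart. PRUNE2 itself had 122 to 168 counts in mono-culture and 149 to 276 in co-culture, against 432 to 598 and 697 to 1136 for GCNT1.

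CHST11 (ENSG00000171310.10, chr12:104455295-104762014, plus strand) was the best counted of the 4 genes and differed by almost the same factor as GCNT1. It had 123, 112 and 123 CPM in mono-culture and 174, 177 and 200 CPM with control ECs. With senECs it had 170, 175 and 198 CPM, and with EGCG-treated senECs 154, 191 and 204 CPM. No co-culture library reached down to the mono-culture range, although EGCG-treated senEC library 1 came within 1.25 times of it. The log2 fold change against mono-culture was 0.62 ± 0.11 for control ECs, 0.60 ± 0.11 for senECs and 0.62 ± 0.11 when the senECs had been given EGCG.

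A4GALT (ENSG00000128274.16, chr22:42692112-42721298, minus strand) was the gene with the lower level in co-culture, and its groups partly overlapped. It had 99.2, 91.8 and 87.5 CPM in mono-culture, and 77.2, 71.6 and 63.5 CPM with control ECs, all 3 below the mono-culture libraries. With senECs it had 80.2, 87.9 and 81.3 CPM and with EGCG-treated senECs 93.4, 76.9 and 64.9 CPM. The senEC library 2 and the EGCG-treated senEC library 1 lay within the mono-culture range, and the other 7 of 9 co-culture libraries lay below it. The log2 fold change against mono-culture was -0.39 ± 0.12 for control ECs, -0.16 ± 0.12 for senECs and -0.24 ± 0.12 for the EGCG-treated ones. The last of these was -0.39 without EGCG-treated senEC library 1 and -0.12 without library 5. Of all tested genes, 6.51% had every control EC library below mono-culture, as A4GALT did.

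**Figure D1:**
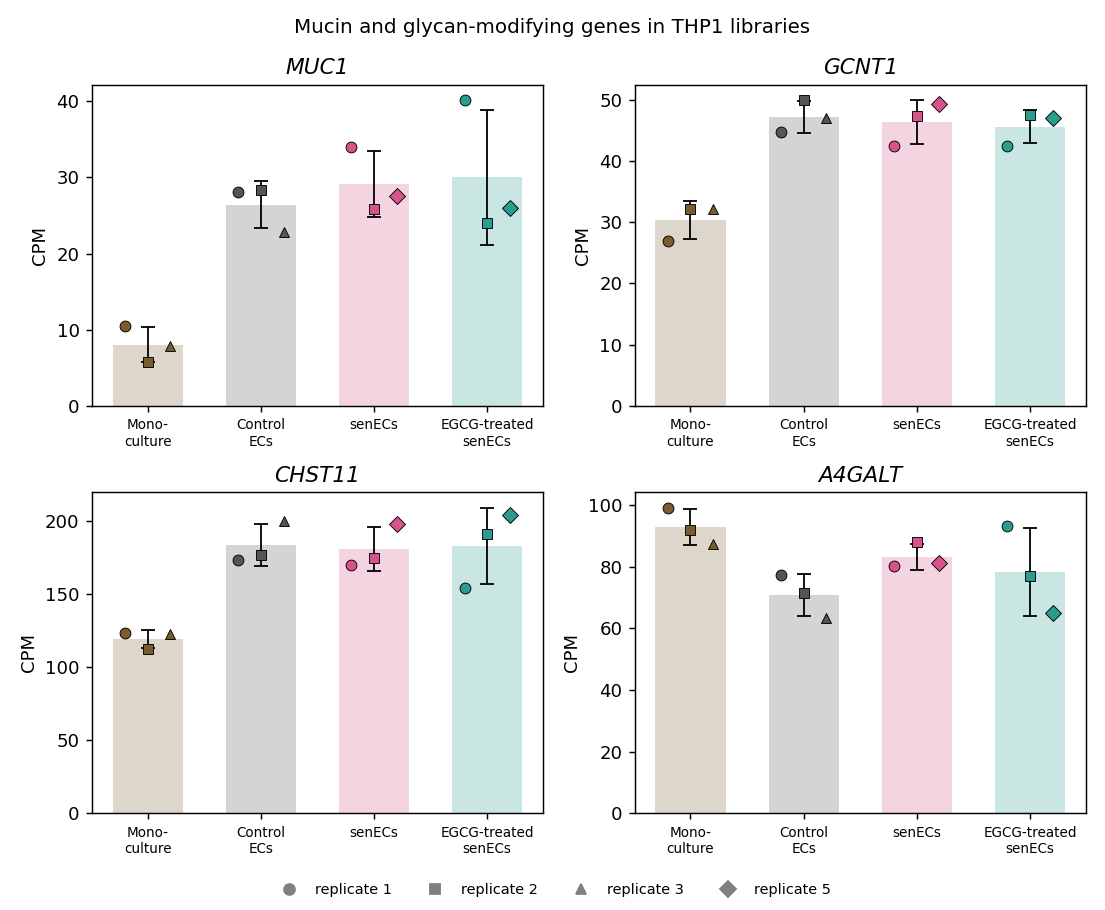
Level of MUC1, GCNT1, CHST11 and A4GALT in CPM (linear axes from 0) in each of the 12 libraries, by group. Points are libraries, with the marker giving the replicate number, bars are group means and error bars are 1 SD (n = 3); MUC1, GCNT1 and CHST11 have all 9 co-culture libraries above mono-culture, and A4GALT has 7 of 9 below it.

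In the 3 contrasts that served to choose the genes, 3 of the 4, MUC1, GCNT1 and CHST11, had an edgeR adjusted p under 0.05, as the choice favours. A4GALT had not in any of them, without the replicate number in the fit. Of all tested genes, 0.143% had such a value for control ECs, 0.309% for senECs and 0.213% for the EGCG-treated ones, and nothing is read from the count of the 4 genes against these shares. Across all 9 co-culture libraries, 1.77% of tested genes lay wholly above mono-culture and 1.64% wholly below it. The 3 contrasts use the same mono-culture libraries. The median log2 fold change over all tested genes was within 0.02 of 0 in each. Fewer cells of a kind and less RNA per cell cannot be told apart in such bulk libraries.

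Per length of exon the order of the genes was different from that of the counts. Over the 12 libraries the mean was 25.7 FPKM for CHST11, 23.9 FPKM for A4GALT, 4.96 FPKM for MUC1 and 4.58 FPKM for GCNT1. In mono-culture A4GALT came first, at 27.2 ± 1.73 FPKM (SD, n = 3) against 18.4 ± 0.94 for CHST11. In co-culture with control ECs CHST11 came first, at 28.2 ± 2.18 FPKM against 20.8 ± 2.02 for A4GALT, and the libraries of the 2 genes did not overlap in either group. With senECs the same order held without overlap, at 27.9 ± 2.33 and 24.4 ± 1.22 FPKM, while with EGCG-treated senECs the libraries of CHST11 and A4GALT overlapped, at 28.2 ± 4.01 and 23.0 ± 4.20 FPKM. MUC1 was the lowest gene in mono-culture, at 1.71 ± 0.50 FPKM against 3.28 ± 0.33 for GCNT1, and the 2 did not differ beyond their spread with control ECs, at 5.60 ± 0.66 and 5.11 ± 0.28 FPKM. With senECs all 3 MUC1 libraries, at 7.21, 5.48 and 5.84 FPKM, lay above those of GCNT1, at 4.59, 5.11 and 5.34 FPKM, and with EGCG-treated senECs the libraries of the 2 genes overlapped, at 6.36 ± 1.87 and 4.93 ± 0.30 FPKM.

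Whether the state of the endothelium mattered for the 4 genes was asked by comparing the co-cultures with each other. None of the 4 passed the test in any of the 3 comparisons, and neither did any of the 25873 genes (0% in each), by edgeR or by DESeq2 without the replicate number in the fit. At an unadjusted p under 0.05, 1709 genes (6.61%) differed between senECs and control ECs, 575 (2.22%) between EGCG-treated senECs and senECs and 1177 (4.55%) between EGCG-treated senECs and control ECs, and none of the 4 genes was among them. These p-values rest on 3 libraries a group, and the intervals below give the size of difference that the data leave possible.

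For MUC1, senECs differed from control ECs by a log2 fold change of 0.14 (95% interval -0.27 to 0.55, adjusted p = 0.895, edgeR). EGCG-treated senECs differed from senECs by 0.04 (-0.37 to 0.45) and from control ECs by 0.18 (-0.22 to 0.59), with adjusted p = 1.00 and 0.979 by edgeR. The 3 co-culture means, 26.4 ± 3.11, 29.1 ± 4.30 and 30.0 ± 8.83 CPM (SD, n = 3), therefore lay inside the spread of the libraries.

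The intervals were tighter for the branching enzyme and the sulfotransferase. GCNT1 differed between senECs and control ECs by -0.03 (-0.25 to 0.20), between EGCG-treated senECs and senECs by -0.02 (-0.25 to 0.20) and between EGCG-treated senECs and control ECs by -0.05 (-0.28 to 0.18) on the log2 scale. CHST11 differed by -0.02 (-0.25 to 0.21), 0.02 (-0.22 to 0.25) and -0.00 (-0.24 to 0.23) in the same comparisons. Co-culture means were 47.2, 46.4 and 45.6 CPM for GCNT1 and 183, 181 and 183 CPM for CHST11, in the order control ECs, senECs, EGCG-treated senECs.

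A4GALT came nearest to a difference among co-cultures. All 3 senEC libraries, at 80.2 to 87.9 CPM, lay above the 3 control EC libraries, at 63.5 to 77.2 CPM, as 5.31% of all tested genes did in that direction. The log2 fold change was 0.23 (-0.02 to 0.48), with an unadjusted p = 0.0675 and an adjusted p = 0.728 by edgeR, so the difference did not pass the test. For A4GALT only the control EC group lay wholly below mono-culture, and its libraries were part of the choice. The p-value of this contrast is therefore not independent of the choice. With EGCG-treated senECs the libraries spanned 64.9 to 93.4 CPM and overlapped both other co-cultures, at a log2 fold change of -0.09 (-0.34 to 0.17) from senECs and 0.15 (-0.10 to 0.40) from control ECs.

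**Figure D2:**
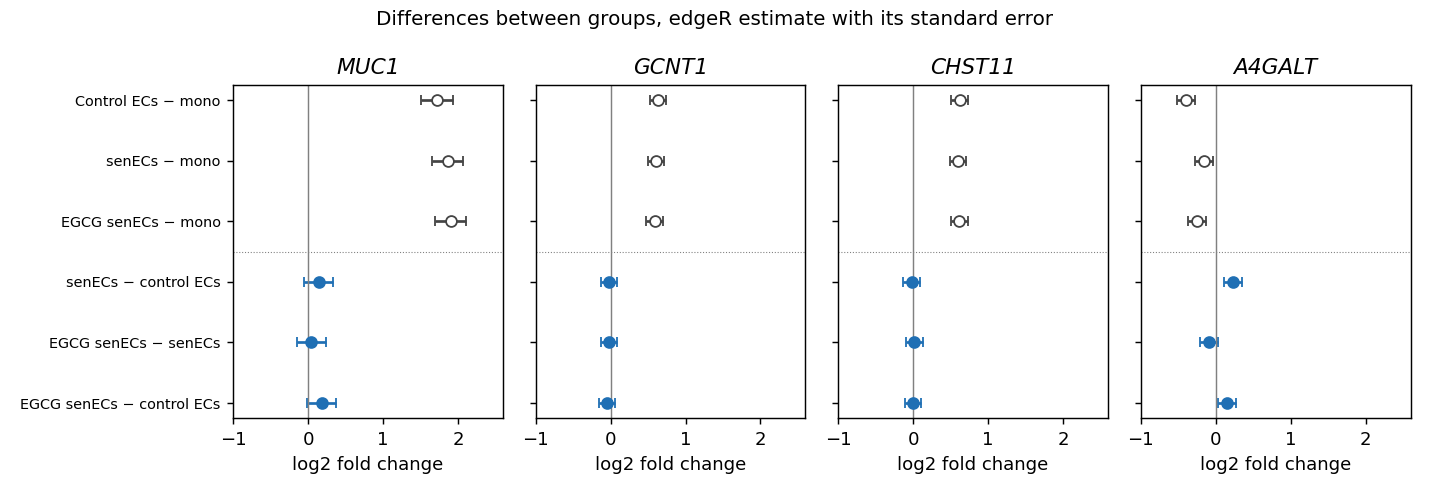
edgeR log2 fold change (x axis) with 1 standard error for each gene in 6 comparisons (y axis). Open circles are the contrasts against mono-culture that served to choose the genes, filled blue circles those among co-cultures, which lie between -0.09 and 0.23 for all 4 genes; MUC1 lies between 1.72 and 1.90 against mono-culture.

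Other genes of the same pathways were set beside the 4 genes through 5 lists of 164 genes, of which 163 were in the table, 132 were tested and 112 had a mean of at least 1 CPM. Few of them passed the test in the fit without the replicate number, to which the list results here refer. In co-culture with control ECs none of the 132 passed the edgeR test, which 0.143% of all tested genes passed. At an unadjusted p under 0.05 were 17 (12.9%, against 6.52% of all tested genes). DESeq2 called 4 of them, and 0.464% of all genes. With senECs 2 passed (1.52%, 1 higher and 1 lower, against 0.309% of all tested genes). There were 16 at an unadjusted p under 0.05 (12.1%, against 11% of all genes). DESeq2 called 4 of them, and 1.34% of all genes. With EGCG-treated senECs 1 passed (0.758%, against 0.213% of all tested genes). There were 15 at an unadjusted p under 0.05 (11.4%, against 8.58%). DESeq2 called 4 of them, and 0.889% of all genes. The shares that passed the edgeR test are above those of all genes but rest on 2 genes and 1 gene. The median log2 fold change over the 132 genes was -0.01, 0.00 and 0.04 in the 3 contrasts. Among co-cultures none passed by edgeR or DESeq2. At an unadjusted p under 0.05 by edgeR were 6 genes between senECs and control ECs (4.55%, against 6.61% of all genes). There was 1 between EGCG-treated senECs and senECs (0.758%, against 2.22%), and 6 between EGCG-treated senECs and control ECs (4.55%, against 4.55%).

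**Figure D3:**
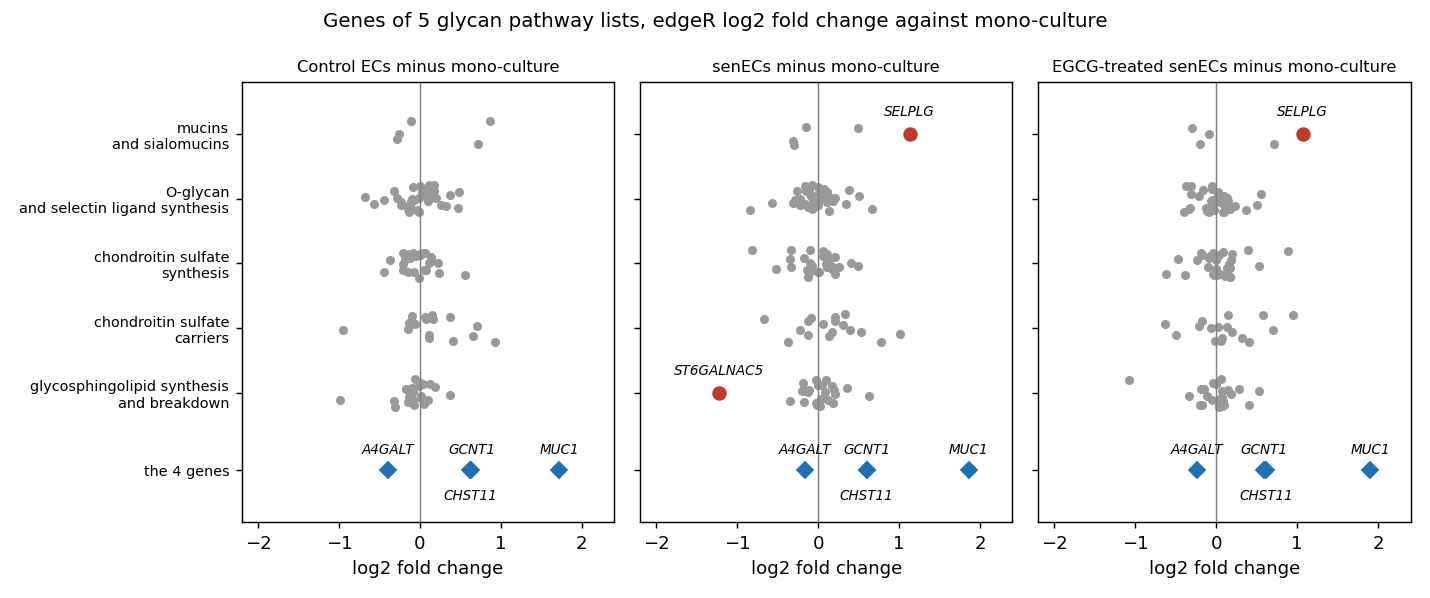
edgeR log2 fold change against mono-culture (x axis) of the genes with a mean of at least 1 CPM in 5 pathway lists (rows), for 3 co-cultures (panels), with the 4 genes as blue diamonds in the bottom row. Red points passed the test at an adjusted p under 0.05, which only SELPLG, in 2 panels, and ST6GALNAC5, in 1, did, while most grey points lie near 0.

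Among mucins, MUC1 was the one with a substantial level. Of 17 other genes with a MUC symbol, 7 had no count in any library, 4 had under 10 counts in all, and 6 were tested. MUC19, a gel-forming mucin gene, had 787 counts over the 12 libraries and no other of the 17 had more than 102, against 5143 for MUC1. Of the tested genes of the mucin and sialomucin list, 12 in number, 1 rose with senECs and with EGCG-treated senECs and none passed with control ECs.

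That gene was SELPLG, which encodes PSGL-1, the mucin-like ligand of P-selectin on leukocytes and a known carrier of core 2 O-glycans. It had 11.8, 9.69 and 12.7 CPM in mono-culture, 17.9, 22.6 and 21.5 CPM with control ECs, 16.6, 26.3 and 32.0 CPM with senECs, and 19.0, 30.4 and 22.2 CPM with EGCG-treated senECs. All 9 co-culture libraries were above mono-culture, as for 1.77% of all tested genes. It rose by 1.13 ± 0.21 with senECs (adjusted p = 0.0213, edgeR) and by 1.07 ± 0.21 with EGCG-treated senECs (adjusted p = 0.0380, edgeR) on the log2 scale. With control ECs the log2 fold change was 0.86 ± 0.21 (adjusted p = 0.162, edgeR), where DESeq2 called it (adjusted p = 0.0215), and between senECs and control ECs the difference was 0.27 ± 0.20 (adjusted p = 0.785, edgeR). Leaving out any 1 mono-culture library, or senEC library 2 or 5, lost the call with senECs, and over all alternatives its adjusted p by edgeR or DESeq2 ran from 3.04e-10 to 0.156. The call with EGCG-treated senECs was lost without any 1 mono-culture library, without senEC library 2 or without EGCG-treated senEC library 2 or 5, over a range of 1.08e-08 to 0.240.

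The other sialomucins went without an edgeR call when the replicate number was not in the fit. SPN, which encodes the leukocyte sialomucin CD43, had 400 ± 16.7 CPM in mono-culture (SD, n = 3) and means of 329, 326 and 325 CPM in the co-cultures. Its co-culture libraries all lay below mono-culture, as for 1.64% of all tested genes. Its log2 fold change was -0.28 ± 0.10, -0.29 ± 0.10 and -0.30 ± 0.10, with adjusted p = 0.598, 0.278 and 0.347 by edgeR. CD164, a sialomucin known as endolyn, had means of 455, 422, 410 and 427 CPM from mono-culture to EGCG-treated senECs, with overlapping libraries. PODXL, which encodes podocalyxin and was singled out after its values were seen, had means of 7.65, 12.5, 10.7 and 12.5 CPM. It was called by DESeq2 with control ECs and with EGCG-treated senECs, and by edgeR only with the replicate number in the fit.

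In O-glycan and selectin ligand synthesis, 44 genes were tested and none passed the edgeR test in any contrast without the replicate number in the fit. ST3GAL4, a sialyltransferase that caps the ends of selectin ligands, was nearest, with 23.8, 22.3 and 24.3 CPM in mono-culture and 29.9 to 37.4 CPM in the 9 co-culture libraries. Its log2 fold change was 0.48 ± 0.12, 0.50 ± 0.12 and 0.50 ± 0.12 (adjusted p = 0.222, 0.0978 and 0.123, edgeR), and DESeq2 called it in all 3 contrasts. C1GALT1, which makes the core 1 O-glycan that GCNT1 branches, had means of 30.1, 33.9, 28.8 and 28.9 CPM from mono-culture to EGCG-treated senECs, in the order used so far. All its libraries with senECs and with EGCG-treated senECs lay below those with control ECs, as for 5.66% and 5.45% of all tested genes. The unadjusted p was 0.0317 and 0.0349 and the adjusted p 0.728 and 0.979 by edgeR, so C1GALT1 did not pass. Its chaperone C1GALT1C1 had 17.0, 15.6, 13.8 and 15.2 CPM, and FUT7, the fucosyltransferase of sialyl Lewis x, 5.54, 5.39, 5.34 and 6.13 CPM. GCNT2, which branches another kind of glycan chain, was hardly counted, with group means of 0.52 to 0.75 CPM. CHST2, a sulfotransferase of N-acetylglucosamine singled out after its values were seen, had means of 15.1, 19.5, 24.0 and 22.2 CPM and was called by DESeq2 with senECs only. The best counted enzymes of the list were FUT4, a fucosyltransferase of Lewis-type antigens, at group means of 328 to 374 CPM, the galactosyltransferase B4GALT1 at 166 to 186 CPM and the sialyltransferase ST3GAL1 at 163 to 188 CPM.

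**Figure D4:**
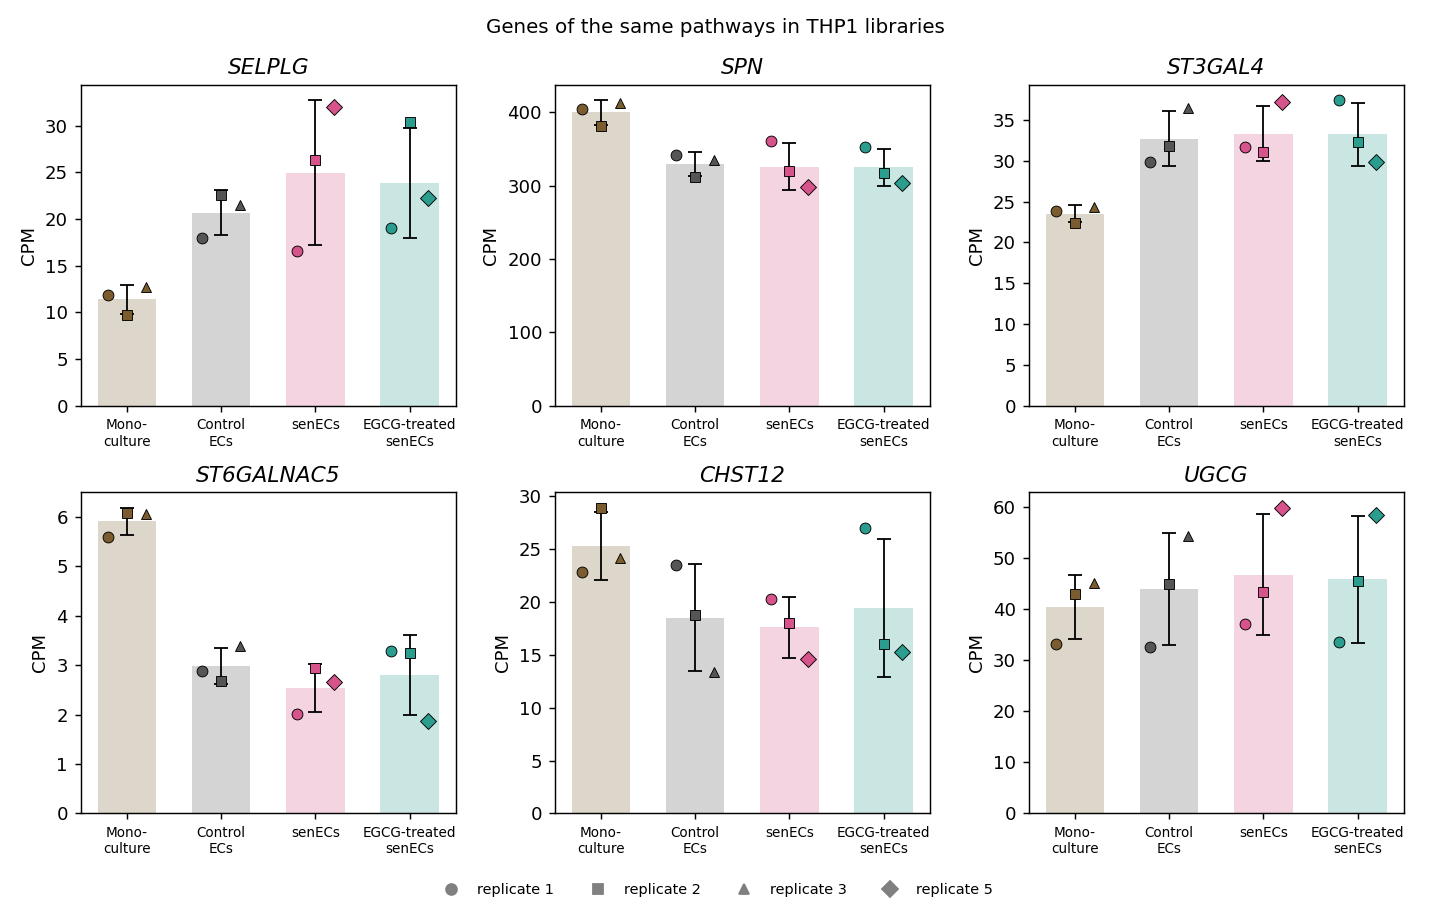
Level in CPM (linear axes from 0) of 6 further genes of mucin, O-glycan, chondroitin sulfate and glycosphingolipid pathways in each library, by group, with points for libraries, bars for group means and error bars of 1 SD (n = 3). SELPLG and ST3GAL4 have all co-culture libraries above mono-culture and ST6GALNAC5 and SPN all below it, whereas UGCG overlaps throughout and CHST12 overlaps except with senECs.

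In chondroitin sulfate synthesis, 30 genes were tested and none passed without the replicate number in the fit. CHST12, another sulfotransferase that acts at the same position as CHST11, had 25.3 ± 3.18 CPM in mono-culture and lower means of 18.5, 17.6 and 19.4 CPM in the co-cultures, with log2 fold changes of -0.45 ± 0.21, -0.52 ± 0.21 and -0.38 ± 0.21 and adjusted p = 0.755, 0.379 and 0.632 by edgeR. The value with control ECs was -0.65 without their library 1 and -0.26 without their library 3. CHSY1, a polymerase of the chain, had means of 106, 125, 112 and 119 CPM, and CHST3, which sulfates the neighbouring position, 37.5, 33.8, 33.1 and 32.8 CPM. CSGALNACT2, which starts the chain, stayed between 13.4 and 14.3 CPM in its group means, and CHST15 and CHST7 were at 0.90 to 1.80 CPM. The best counted genes of the list were UXS1, which makes UDP-xylose, at 165 to 186 CPM, the phosphatase gene IMPAD1 at 238 to 262 CPM and FAM20B, a xylose kinase of the linkage region, at 135 to 145 CPM.

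None of the 17 tested genes of chondroitin sulfate carriers passed either, without the replicate number in the fit. SRGN, which encodes serglycin, the proteoglycan of leukocyte granules, had means of 1163, 1287, 1342 and 1221 CPM from mono-culture to EGCG-treated senECs. CD44, the hyaluronan receptor that can carry chondroitin sulfate, had 117 ± 39.4 CPM in mono-culture and means of 126, 154 and 155 CPM in the co-cultures, with overlapping libraries. APLP2, a relative of the amyloid precursor protein, was the best counted carrier, at group means of 4011 to 4351 CPM, and APP itself stood at 583 to 659 CPM.

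Of 29 tested genes of glycosphingolipid synthesis and breakdown, 1 passed without the replicate number in the fit, with senECs (3.45%, against 0.309% of all tested genes). ST6GALNAC5, a sialyltransferase of brain-type gangliosides, had 5.60, 6.08 and 6.06 CPM in mono-culture, 2.88, 2.68 and 3.39 CPM with control ECs, 2.01, 2.95 and 2.66 CPM with senECs, and 3.29, 3.24 and 1.87 CPM with EGCG-treated senECs. Every co-culture library was below mono-culture, as for 1.64% of all tested genes. It fell by 1.22 ± 0.25 on the log2 scale with senECs (adjusted p = 0.0404, edgeR), with -0.99 ± 0.25 (adjusted p = 0.187) and -1.08 ± 0.25 (adjusted p = 0.0970) with control ECs and EGCG-treated senECs by the same test. DESeq2 called it in both of these contrasts as well (adjusted p = 0.0304 and 0.00901). The call with senECs was lost without any 1 of the mono-culture or senEC libraries or without EGCG-treated senEC library 2, and its adjusted p by edgeR or DESeq2 ran from 0.000445 to 0.162 over the alternatives. None of the named enzymes before and after A4GALT passed the test. UGCG, which makes glucosylceramide, had means of 40.4, 44.0, 46.8 and 45.8 CPM, B4GALT5, which makes the lactosylceramide that A4GALT uses, 261, 272, 257 and 254 CPM, and B3GALNT1, which extends Gb3 to globoside, 31.2, 31.4, 27.1 and 28.8 CPM. GLA, the lysosomal galactosidase that breaks Gb3 down, had 60.9, 54.0, 62.6 and 62.5 CPM, and ST3GAL5, which draws lactosylceramide into gangliosides, 3.91, 3.17, 3.43 and 3.09 CPM. Every co-culture library of ST3GAL5, at 2.45 to 3.72 CPM, was narrowly below the mono-culture libraries, at 3.73 to 4.04 CPM, as for 1.64% of all tested genes. Its adjusted p was 0.915, 0.833 and 0.721 for the 3 co-cultures by edgeR. Every senEC library of B3GALNT1, at 24.5 to 28.8 CPM, was below its mono-culture range of 30.0 to 33.5 CPM (adjusted p = 0.618, edgeR), as for 8.5% of all tested genes. PSAP, the precursor of the saposins that aid lysosomal breakdown, stood at 880 to 1038 CPM.

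The pattern over the 12 libraries was compared between genes by Pearson's r of log2(CPM + 2), as a description in which the points share the 4 groups and their library scaling. Among the 4 genes r was 0.81 for MUC1 and GCNT1, 0.80 for MUC1 and CHST11 and 0.92 for GCNT1 and CHST11. With A4GALT it was -0.41, -0.69 and -0.77 for MUC1, GCNT1 and CHST11. The 4 genes were chosen on co-culture against mono-culture in these same libraries, which favours these signs. Nothing is therefore read from these values or from the partners that follow. The genes most like each of them among 14397 with a mean of at least 1 CPM were SBNO2 (r = 0.97), POU2F2 (0.95) and FGFRL1 (0.95) for MUC1, and METTL7B (0.96), CLU (0.96) and LAP3 (0.95) for GCNT1. For CHST11 they were FAM129A, PARP9 and PVR, each at 0.97, and for A4GALT RPS6KA4 (0.93), FAM98C (0.93) and PRAM1 (0.91). POU2F2, which encodes the transcription factor Oct-2, had a mean of 18.9 CPM in mono-culture and of 63.9, 64.3 and 70.9 CPM in the co-cultures, while PARP9, a macrodomain protein, went from 11.4 to 28.5, 29.1 and 30.1 CPM in the same order.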

How the data were processed

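The authors deposited 1 table of gene counts, whole-number read counts that were not normalized. Their methods and processing notes name cleaned paired-end reads and HISAT2 on hg38; the counting program, its annotation and its strand setting are not given in the sources used here. Groups came from the sample labels, and 4 further columns of the table, which match no described sample, were not used. Symbols were matched to GENCODE 29, of which all 57169 distinct symbols were found; rows that share a symbol were kept as they were.

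Counts of 12 libraries with a sum of at least 10 (25873 genes) were fitted in edgeR 4.0.16 (R 4.3.3; TMM, quasi-likelihood test, 1 mean per group) with Benjamini-Hochberg adjustment over all genes. DESeq2 1.42.0, other scalings and filters, the 6 libraries compared alone, a replicate block and leaving out each library were alternatives. Replicate pairs differed by more than counting noise (chi-square per degree of freedom 10.3 to 38.2 over 12 pairs), so no library was counted as a copy. The test was checked on simulated counts. FPKM used exon lengths of GENCODE 29. The 4 genes, the pathway lists and the markers were chosen with earlier results of these data known. Named were the 4 genes, genes called in a list, the 3 best counted per list, a set of pathway partners, and for each of the 4 the 3 genes with the highest r. A gene that this rule names is not reported here. Motifs were counted on both strands of RefSeq promoter windows.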

Additional observations from a re-analysis of the deposited data

How the results depend on the processing

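With 3 libraries a group, none of the 4 genes was called among co-cultures under any alternative run, and leaving out 1 library gave 0 throughout. The sign of most of these small differences was not stable. Over the fits without 1 library the log2 fold change between senECs and control ECs ran from -0.00036 to 0.22 for MUC1, from -0.074 to 0.020 for GCNT1 and from -0.090 to 0.046 for CHST11, while A4GALT kept its sign (0.16 to 0.29). Between EGCG-treated senECs and senECs it ran from -0.22 to 0.18 for MUC1, -0.082 to 0.030 for GCNT1, -0.070 to 0.13 for CHST11 and -0.23 to 0.034 for A4GALT. Between EGCG-treated senECs and control ECs it ran from -0.094 to 0.32 for MUC1, -0.090 to 0.098 for CHST11 and -0.0095 to 0.27 for A4GALT, while GCNT1 kept its sign (-0.094 to -0.010). Against mono-culture the 4 genes kept their direction under every alternative. In the edgeR fits without 1 library MUC1 stayed under an adjusted p of 0.05 in all 12 for each co-culture. GCNT1 did so in 7 of 12 for each, and CHST11 in 6, 7 and 7. Both lost it without any 1 mono-culture library. A4GALT was under it in none of these fits, but was with control ECs in both replicate-block fits. These contrasts served to choose the genes, so these counts of fits describe the fits and are no support for a difference.

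Counts of pathway genes called against mono-culture depended on the fit. With control ECs, 0 became 2 with every counted gene kept, 1 with only the 6 libraries compared, 4 by DESeq2 and 0 to 1 without 1 library. With senECs, 2 became 8 with every counted gene kept, 4 by DESeq2 and 0 to 2 without 1 library. With EGCG-treated senECs, 1 became 8 with every counted gene kept, 0 with at least 10 counts in every library, 4 by DESeq2 and 0 to 1 without 1 library. The cause was not tested. No share over all genes is given for the fits with other filters or fewer libraries, so nothing is read from their counts about the pathways.

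The replicate numbers are shared between groups, but the labels do not say that they mark a common batch or that 5 belongs with 3. Deviations from the group means correlated between same-numbered libraries at r = 0.032 to 0.577 (median 0.380, 14 pairs), and not every such pair was above 0.1. Pairs of number 3 with number 5 were kept apart, at 0.370 to 0.534 (median 0.449, 4 pairs). The remaining pairs of different numbers had a median of -0.190 (36 pairs). With the replicate number as a block the pathway counts were 9, 10 and 7 in the 3 contrasts against mono-culture, in fits that called 1.81%, 2.74% and 1.64% of all genes. PODXL, SELPLG, ST3GAL4, UGDH and ST6GALNAC5 were called in all 3. GALNT12 and CHST12 were called with control ECs and senECs, and CD44 and SDC4 with senECs and EGCG-treated senECs. GALNT6 and ASAH1 were called with control ECs only, and CHST2 with senECs only. With numbers 3 and 5 taken as 1 block the pathway counts were 8, 15 and 14. No share over all genes is given for that fit, so nothing is read from these counts. Among co-cultures the block with numbers 3 and 5 kept apart called 153 genes (0.591%) between senECs and control ECs, 13 (0.0502%) between EGCG-treated senECs and senECs and 34 (0.131%) between EGCG-treated senECs and control ECs. None of the 4 genes was among them; A4GALT was under an unadjusted p of 0.05 between senECs and control ECs, with an adjusted p = 0.416 by edgeR.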
